A study of Mus musculus with 6 samples.

Results

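The genes described here are the cyclins of the A, B, D, E and F families, the cyclin-dependent kinases (CDKs), the CDK inhibitors, the E2F factors and their pocket protein partners, the minichromosome maintenance (MCM) and origin recognition (ORC) genes, the numbered CDC genes, and the markers Mki67 and Pcna. They were chosen by gene symbol, and earlier results of these data were known when the choice was made. The choice gave 85 of the 21286 genes measured. The tissue was the lateral ganglionic eminence (LGE), the ventral forebrain zone that produces striatal projection neurons and olfactory bulb interneurons, taken at embryonic day 16.5 for RNA sequencing. There were 3 libraries from Dlx1/2 -/- mutants, which lack a pair of homeobox factors of ganglionic eminence progenitors and young neurons, and 3 from wild type littermates. All were on a mixed background of C57BL/6J, 129S6 and CD1. The labels do not say whether tissue was pooled or whether each library came from its own embryo. The p-values therefore reflect the spread among these libraries, which may be technical. In bulk tissue, fewer cells of a type and less RNA per cell cannot be told apart.

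The cell cycle engine is built in layers. Cyclins bind CDKs and switch them on, while inhibitors of the INK4 and CIP/KIP families hold them back. D cyclins with Cdk4 or Cdk6 phosphorylate the pocket proteins, which releases E2F factors to drive the genes of S phase, among them those of the ORC, Cdc6 and MCM proteins that license origins of replication. In the late LGE, dividing cells are radial glia and basal progenitors of the ventricular and subventricular zones, and the neurons they make have left the cycle.

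Library totals ran from 15670067 to 16196974 counts in the mutant and from 10711630 to 16588359 in wild type. The smallest was wild type replicate 1, whose correlation with the other wild type libraries across genes (Pearson's r of log2 CPM, counts scaled to library size) was 0.9795 and 0.9813, against 0.9871 between those. Dlx2 was at 15.5 to 18.7 CPM in mutant libraries and 419 to 471 CPM in wild type libraries, and Dlx1 at 109 to 138 CPM in mutant libraries and 831 to 898 CPM in wild type libraries, as the labels say. Which exons the Dlx1/2 deletion takes out is not stated in the labels. The defining LGE lineage markers Meis2, Bcl11b and Isl1 were present in all 6 libraries. Of the 10 LGE lineage markers 9 were called lower in the mutant, against 12.8% of all tested genes. The markers were listed with earlier results of these data known.

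Differences in this machinery were small. Of the 85 genes 80 had enough reads to be tested, and among them the mutant was higher in 10 and lower in 8 (quasi-likelihood test of edgeR, adjusted by Benjamini-Hochberg over all genes tested, threshold 0.05). That is 22.5% of those tested, against 24% of all 15326 tested genes, or 12.5% higher and 10% lower against 11.2% and 12.8% of all. With all 6 libraries the share called was thus close to that of all tested genes. With a replicate block, or without any 1 library other than wild type replicate 1, 12.5% to 16.2% of the 80 were called, against 16.8% to 18.9% of all genes tested, and 3 to 6 of the 80 were higher. None of the 80 changed by 2-fold, a size that 7.87% of all tested genes reached; the largest difference was −0.88 on the log2 scale, for Cdk20. The median log2 fold change, mutant over wild type, was 0.06 over the 80 genes and 0.00 over all tested genes, and the median absolute log2 fold change was 0.18 and 0.19. In 34 of the 80, or 42.5%, the mutant libraries lay wholly above or below the wild type libraries, against 41.9% of all tested genes. The mutant was above in 22 of the 80 and below in 12 of the 80. Of all 15326 tested genes it was above in 3175 (20.7%) and below in 3246 (21.2%).

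**Figure D1:**
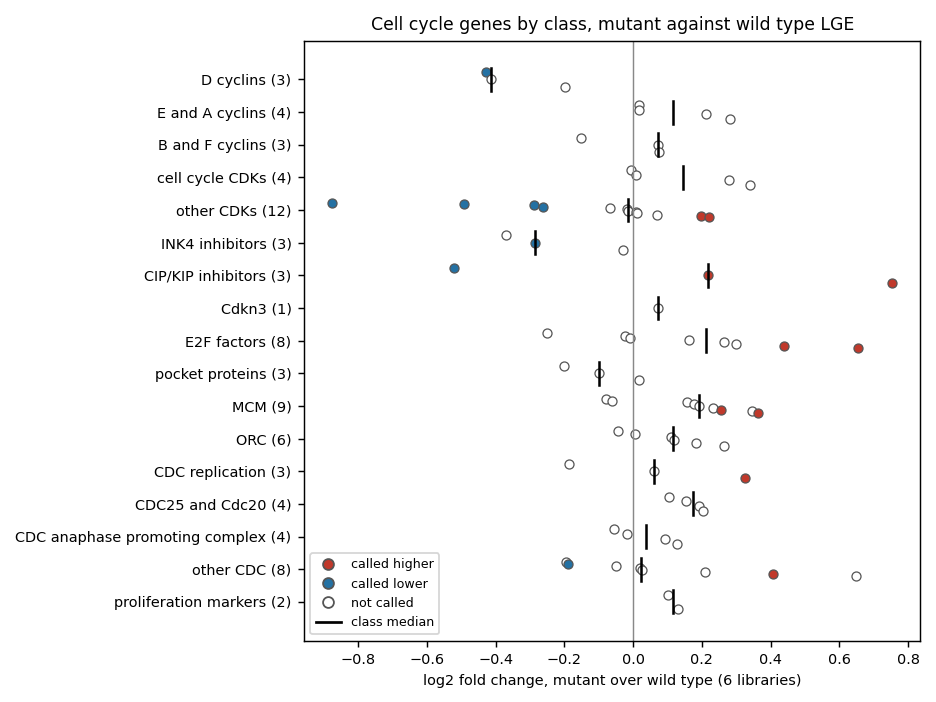
Log2 fold change of each tested gene, mutant over wild type, with a row per class and the number tested in brackets; filled points passed the test and black bars are class medians. D cyclins and INK4 inhibitors lie left of 0, and the MCM, E2F and CDC25 classes mostly right of it.

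Class medians lay on both sides of 0. They were lowest for D cyclins (−0.41, 3 tested) and INK4 inhibitors (−0.29, 3 tested) and highest for CIP/KIP inhibitors (0.22, 3 tested), E2F factors (0.21, 8 tested), MCM genes (0.19, 9 tested) and the class of CDC25 phosphatases with Cdc20 (0.17, 4 tested). Differences between classes were not tested. The 8 genes that kept their call in every one of 10 alternative analyses were E2f1, E2f2 and Cdc14a, all higher, and Ccnd2, Cdk14, Cdk16, Cdk19 and Cdk20, all lower; they are the 8 with an adjusted p below 0.01. The other 10 called genes each lost the call in at least 1 alternative.

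**Figure D2:**
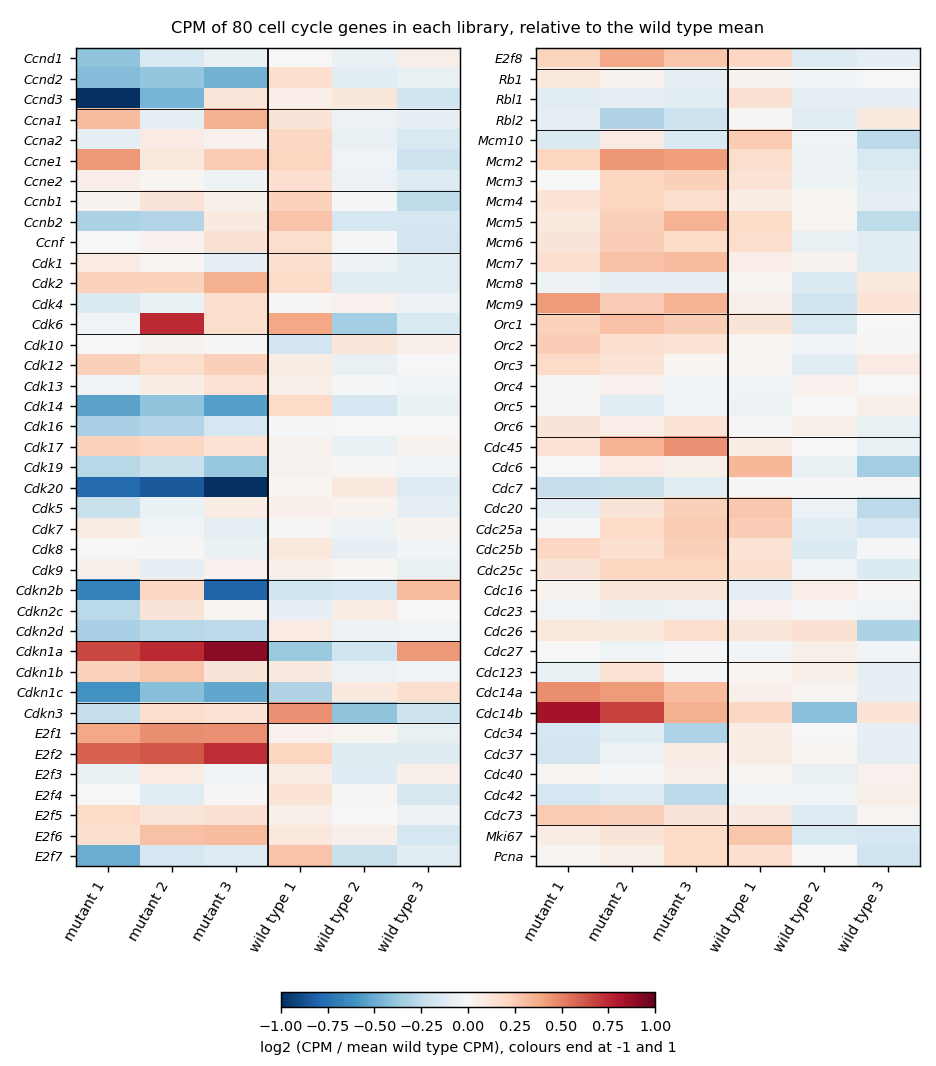
Heat map of CPM in each library relative to the wild type mean (log2), for the 80 tested genes in class order, mutant libraries left of wild type libraries. Ccnd2, Cdk14 and Cdk20 are blue in every mutant library and E2f1, E2f2 and Cdc14a red, while many S phase and mitosis genes are also red in wild type replicate 1.

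Cyclins were led by Ccnd2, a D cyclin of forebrain progenitors. It had 963, 995 and 933 CPM in the mutant libraries and 1460, 1200 and 1230 CPM in the wild type libraries. Every mutant library was below every wild type library, and wild type replicate 1 was the highest. The log2 fold change was −0.43 ± 0.091 (SE, n = 3 each, adjusted p = 0.00647), and −0.34 without wild type replicate 1 (adjusted p = 0.00302). Its exons overlap those of predicted genes on the opposite strand. Ccnd1, the D cyclin best known as a mitogen target, had 58.3 to 73.7 CPM in the mutant and 73.7 to 80.3 CPM in wild type (log2 fold change −0.20, adjusted p = 0.16). Ccnd3, the third D cyclin, varied most among the mutants, at 14.1, 23.3 and 35.1 CPM, against 33.8, 34.8 and 28.1 CPM in wild type. Its log2 fold change of −0.41 did not pass (adjusted p = 0.33), though without mutant replicate 3 it was −0.78 with adjusted p = 0.0458. Per kilobase of the longest annotated transcript, Ccnd2 stood at 152.3 ± 4.84 CPM in the mutant and 205.04 ± 22.1 CPM in wild type (SD, n = 3 each), far above the others. On that scale Ccnd1 stood at 17.96 ± 2.12 CPM in the mutant and 20.6 ± 0.89 CPM in wild type, and Ccnd3 at 6.27 ± 2.72 CPM in the mutant and 8.35 ± 0.928 CPM in wild type.

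No cyclin of the A, B, E or F families was called. Ccna2, the S phase and G2 cyclin, had 153, 172 and 167 CPM in the mutant and 187, 154 and 146 CPM in wild type, with a log2 fold change of 0.02. Ccnb1, the main mitotic cyclin, had 45.0 to 48.1 CPM in the mutant and 36.9 to 51.5 CPM in wild type, and Ccnb2 had 28.5, 29.0 and 37.8 CPM in the mutant and 43.2, 31.4 and 31.6 CPM in wild type. In Ccna2, Ccnb1 and Ccnb2 the groups overlapped, and wild type replicate 1 was the highest of the 6 libraries. Ccne1 and Ccne2, which drive entry into S phase, had log2 fold changes of 0.28 (adjusted p = 0.20) and 0.02. Ccnf, which encodes a ubiquitin ligase subunit, was at 0.07, and the germline cyclin Ccna1 had 2.21 to 3.02 CPM in the mutant and 2.23 to 2.58 CPM in wild type. Ccnb3, also a germline cyclin, was not tested, with 0 reads in the mutant group and 2 in wild type replicate 3.

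The 4 CDKs of the cycle itself did not pass the test with all libraries. Cdk4, a partner of the D cyclins, had 339, 356 and 417 CPM in the mutant and 376, 384 and 358 CPM in wild type (log2 fold change −0.01), and Cdk1, the mitotic kinase, had 48.6 to 54.8 CPM in the mutant and 47.9 to 57.9 CPM in wild type (log2 fold change 0.01). Their groups overlapped. Cdk2, the partner of E and A cyclins, had 49.2, 49.3 and 53.8 CPM in the mutant, against 48.0, 39.0 and 38.9 CPM in wild type. All 3 mutant values were above the wild type values, by little over replicate 1, and the log2 fold change of 0.28 had adjusted p = 0.0711. Cdk6, the other D cyclin partner, was scattered within both groups, at 73.6, 126 and 84.8 CPM in the mutant and 98.4, 59.4 and 67.4 CPM in wild type. Per kilobase Cdk4 was at 180.6 ± 19.95 CPM in the mutant and 181.5 ± 6.43 CPM in wild type (SD, n = 3 each), and Cdk6 at 8.22 ± 2.38 CPM in the mutant and 6.51 ± 1.79 CPM in wild type.

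Of the 14 other CDKs, most of which act in transcription, in neurons or in cilia and not in the cycle, 12 were tested; 4 fell and 2 rose, against 12.8% lower and 11.2% higher among all tested genes. Cdk20, known as cell cycle related kinase and for its part in ciliary hedgehog signalling, changed most. It had 9.20, 8.79 and 7.74 CPM in the mutant libraries and 16, 16.9 and 14.4 CPM in the wild type libraries. The groups were far apart and the log2 fold change was −0.88 ± 0.10 (SE, n = 3 each, adjusted p = 0.000993), a 1.83-fold drop. Exons of Cdk20 overlap a gene on the opposite strand.

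Cdk14, a kinase of the PFTAIRE type that binds cyclin Y and acts on Wnt receptors, had 75.8, 83.1 and 75.1 CPM in the mutant and 126, 98.0 and 105 CPM in wild type. No mutant library reached the lowest wild type library (log2 fold change −0.49 ± 0.12, adjusted p = 0.00828). Cdk16, a PCTAIRE kinase abundant in neurons, had 167, 171 and 185 CPM in the mutant, against 207, 210 and 209 CPM in wild type. Its wild type values lay close together, and the log2 fold change was −0.26 ± 0.044 (adjusted p = 0.00678). Cdk17, its close PCTAIRE relative, went the other way, with 203, 200 and 191 CPM in the mutant and 177, 165 and 177 CPM in wild type (0.20 ± 0.042, adjusted p = 0.0219), though it lost the call in 4 of the 10 alternatives. The third PCTAIRE gene, Cdk18, was too rare to test, with 0 to 14 reads per library. Cdk16 and Cdk17 thus passed the test in opposite directions.

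Of the Mediator kinases, Cdk19 fell to 119, 124 and 111 CPM in the mutant, against 148, 146 and 140 CPM in wild type (log2 fold change −0.29 ± 0.055, adjusted p = 0.00889). Its paralog Cdk8 had 69.3 to 73.0 CPM in the mutant and 68.4 to 78.0 CPM in wild type, with a log2 fold change of −0.02, and whether the paralogs differ from each other was not tested. Cdk12, which phosphorylates RNA polymerase II during elongation, had 81.2, 78.0 and 81.4 CPM in the mutant and 72.5, 65.3 and 68.8 CPM in wild type (0.22 ± 0.048, adjusted p = 0.0341), and it lost the call in 6 of the 10 alternatives. Cdk13, its paralog, was at 0.07, Cdk9 at 0.01 and Cdk7, the CDK-activating kinase, at −0.02. Cdk5, the kinase of postmitotic neurons, had 57.5 to 70.4 CPM in the mutant and 62.9 to 69.4 CPM in wild type (−0.07, adjusted p = 0.63).

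**Figure D3:**
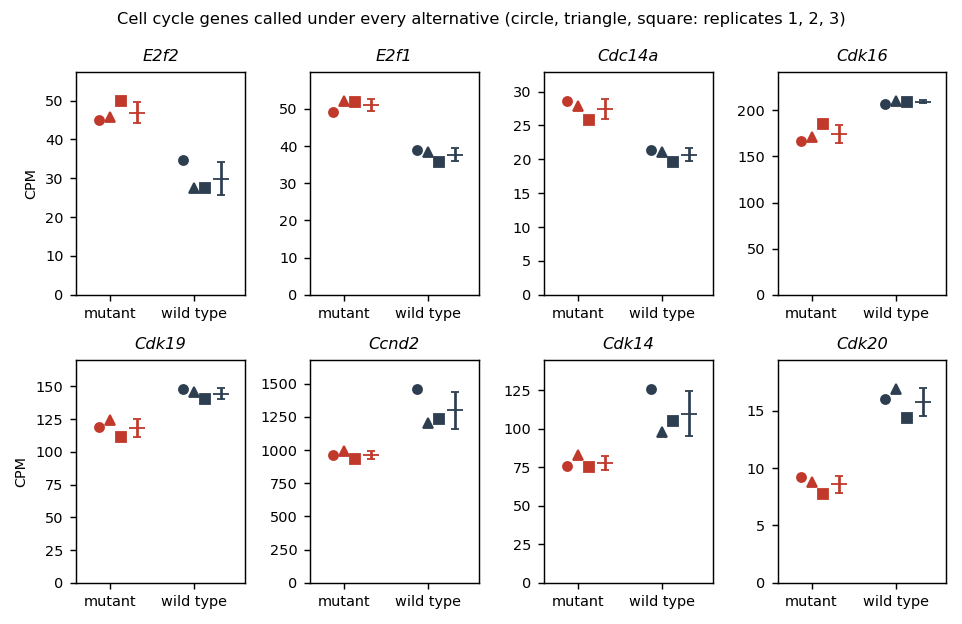
CPM of the 8 genes that passed the test in every alternative, a point per library with mean and SD beside it, mutant left and wild type right. The groups do not overlap in any panel, and the axes start at 0.

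Among CDK inhibitors, all 3 CIP/KIP genes passed the test with all libraries, 2 higher and 1 lower. Of all tested genes 11.2% were higher and 12.8% lower. None of the 3 kept its call in every alternative. Cdkn1a, which encodes p21, the p53 target that arrests the cycle after damage, had 11.0, 11.6 and 12.9 CPM in the mutant and 5.36, 6.04 and 9.35 CPM in wild type (0.75 ± 0.25, adjusted p = 0.029). The groups were apart, with wild type replicate 3 closest to the mutant, and the call was lost in 5 of the 10 alternatives, each of them the loss of a library; without wild type replicate 1 the log2 fold change was 0.61 with adjusted p = 0.065. Cdkn1b, which encodes p27, the inhibitor of cells that leave the cycle, had 193, 199 and 180 CPM in the mutant and 175, 158 and 160 CPM in wild type (0.22 ± 0.064, adjusted p = 0.0344). Cdkn1c, which encodes p57, an imprinted inhibitor of embryonic progenitors, moved the other way, with 15.9, 18 and 16.9 CPM in the mutant and 19.7, 25.9 and 27.0 CPM in wild type. Every mutant library was below every wild type library (−0.52 ± 0.15, adjusted p = 0.0212), and more so without wild type replicate 1, its lowest (−0.65, adjusted p = 0.00324). Cdkn1b and Cdkn1c lost their calls in 5 and 4 of the 10 alternatives.

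Among INK4 genes, whose products block Cdk4 and Cdk6, Cdkn2d fell. This gene for p19, which stays on in postmitotic neurons, had 32.6, 33.6 and 34.1 CPM in the mutant and 43.1, 39.3 and 39.9 CPM in wild type (−0.29 ± 0.046, adjusted p = 0.019; lost in 3 of 10 alternatives). Cdkn2c, for p18, had 25.5 to 33.5 CPM in the mutant and 29.0 to 32.4 CPM in wild type and was not called. Cdkn2b, for p15, had at most 1.09 CPM in any library. Cdkn2a had 3, 0 and 3 reads in the mutant libraries and 0, 2 and 0 in the wild type libraries, at or under the floor of 3 counts (0.181 to 0.287 CPM, a limit of counting error only), so a difference was not detectable at this depth. Cdkn3, a phosphatase that acts on CDKs, had 2.19, 2.91 and 2.83 CPM in the mutant and 3.54, 1.95 and 2.23 CPM in wild type.

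**Figure D4:**
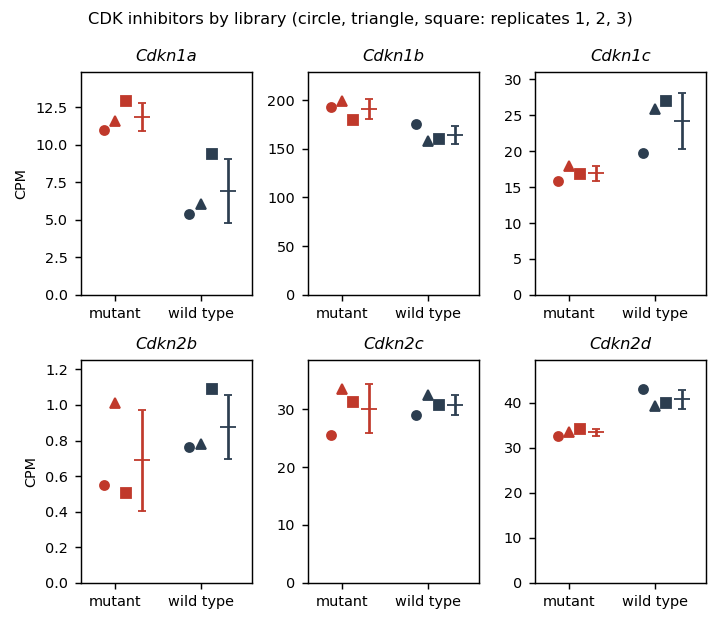
CPM of the tested CIP/KIP and INK4 inhibitor genes in each library with mean and SD beside the points, mutant left and wild type right. Cdkn1a and Cdkn1b are higher and Cdkn1c and Cdkn2d lower in all mutant libraries, and the groups of Cdkn2b and Cdkn2c overlap.

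Of the E2F factors, E2f1 and E2f2 rose. E2f2, an activator of S phase genes, had 44.9, 45.9 and 49.9 CPM in the mutant libraries and 34.7, 27.5 and 27.5 CPM in the wild type libraries. No values overlapped, and the 1.57-fold rise (log2 fold change 0.65 ± 0.12, SE, n = 3 each, adjusted p = 0.00301) was 0.77 without wild type replicate 1 (adjusted p = 0.000649). E2f1, the founding activator, had 49.2, 52.1 and 51.8 CPM in the mutant and 38.9, 38.3 and 35.7 CPM in wild type (0.44 ± 0.046, adjusted p = 0.00208). The third activator, E2f3, had 52.7 to 58.6 CPM in the mutant and 50.7 to 58.2 CPM in wild type, with a log2 fold change of −0.01. Per kilobase, E2f1 was at 18.5 ± 0.57, E2f2 at 9.90 ± 0.552 and E2f3 at 10.8 ± 0.616 CPM in the mutant, against 13.7 ± 0.618, 6.31 ± 0.88 and 10.9 ± 0.798 CPM in wild type (SD, n = 3 each).

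No repressor E2F was called with all libraries. E2f4, the factor of resting cells and the most abundant of the family per kilobase, had 62.3, 58.0 and 62.9 CPM in the mutant and 68.3, 62.6 and 55.8 CPM in wild type. E2f5 and E2f6 were higher in every mutant library than in any wild type library but by little (0.16, adjusted p = 0.14, and 0.26, adjusted p = 0.0685). The atypical repressors E2f7 and E2f8, themselves targets of E2F, had log2 fold changes of −0.25 (adjusted p = 0.27) and 0.30 (adjusted p = 0.0807). E2f8 had 27.6, 30.8 and 28.6 CPM in the mutant and 27.3, 21.6 and 22.1 CPM in wild type, so that the groups were apart by little. The pocket proteins, which hold E2Fs in check, were not called. Rb1 had 139, 132 and 121 CPM in the mutant and 132, 127 and 129 CPM in wild type, Rbl1 59.6 to 61.1 CPM in the mutant and 60.7 to 71.9 CPM in wild type, and Rbl2 46.0 to 52.8 CPM in the mutant and 52.2 to 60.5 CPM in wild type.

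The MCM genes encode the replicative helicase, a ring of Mcm2 to Mcm7, with Mcm10 as an assembly factor and Mcm8 and Mcm9 as helicases of repair. Mcm2 had 151, 177 and 174 CPM in the mutant and 147, 126 and 117 CPM in wild type (0.36 ± 0.12, adjusted p = 0.027). Mcm7 had 208, 227 and 230 CPM in the mutant and 195, 190 and 172 CPM in wild type (0.25 ± 0.071, adjusted p = 0.0218). In both, all mutant libraries were above all wild type libraries, wild type replicate 1 was the highest wild type value, and the call was lost in 5 and 4 of the 10 alternatives. The other ring genes, Mcm3 to Mcm6, had log2 fold changes of 0.16, 0.18, 0.23 and 0.19 and did not pass with all libraries. Mcm5 had 110, 121 and 131 CPM in the mutant and 117, 105 and 86.3 CPM in wild type (adjusted p = 0.19), and Mcm6 had 155, 168 and 161 CPM in the mutant and 160, 134 and 131 CPM in wild type (adjusted p = 0.13). The groups overlapped in both, through wild type replicate 1. Mcm10 was at −0.06, Mcm8 at −0.08 and Mcm9 at 0.34 (adjusted p = 0.0633).

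Promoters of MCM and E2F genes were read for the letters that E2F factors are known to bind, because these genes are textbook E2F targets. RefSeq windows on GRCm38.p6, from 250 bases before to 50 after a gene's listed start, were found for 71 of the 85 genes, 13 of them with several starts. The letters TTTCCCGC, TTTCGCGC, TTTGCCGC or TTTGGCGC, on either strand, occurred in at least 1 window of 16 of the 71, or 22.5%, against 2.6% of 27025 listed genes and 4.1% of those in the expression table. By class they occurred in 5 of 8 MCM genes, 3 of 6 E2F genes and 0 of 11 in the class of other CDKs. They were also in 0 of 2 cyclins of the E and A class and 0 of 2 proliferation markers. Of the called genes with a window, 2 of 9 that rose and 0 of 5 that fell held them. The windows below are shown for the 2 called ring genes, for Mcm6, which was called without wild type replicate 1, and for E2f2; capitals mark the E2F letters, and each line is read 5′ to 3′.
Mcm7, chr5:138171834-138172133, minus strand: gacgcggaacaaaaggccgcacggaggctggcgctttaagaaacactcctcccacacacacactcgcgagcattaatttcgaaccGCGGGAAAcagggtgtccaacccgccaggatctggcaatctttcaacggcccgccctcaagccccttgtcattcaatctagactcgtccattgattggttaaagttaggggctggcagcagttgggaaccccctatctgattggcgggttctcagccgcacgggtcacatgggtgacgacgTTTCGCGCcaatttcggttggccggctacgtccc
Mcm6, chr1:128359656-128359955, minus strand: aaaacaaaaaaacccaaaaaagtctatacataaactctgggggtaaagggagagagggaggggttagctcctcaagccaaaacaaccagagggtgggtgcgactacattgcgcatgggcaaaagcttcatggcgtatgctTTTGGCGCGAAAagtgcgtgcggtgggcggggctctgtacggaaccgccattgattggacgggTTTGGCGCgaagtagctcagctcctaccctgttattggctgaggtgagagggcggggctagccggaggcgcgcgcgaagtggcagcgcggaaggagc
E2f2, chr4:136172024-136172323, plus strand: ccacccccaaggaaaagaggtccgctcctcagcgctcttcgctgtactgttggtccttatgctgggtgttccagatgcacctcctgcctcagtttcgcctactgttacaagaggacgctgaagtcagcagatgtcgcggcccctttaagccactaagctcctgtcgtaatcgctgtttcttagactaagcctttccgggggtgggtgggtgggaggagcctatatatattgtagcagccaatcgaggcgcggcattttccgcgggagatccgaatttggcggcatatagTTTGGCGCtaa
Mcm2, chr6:88898731-88899030, minus strand: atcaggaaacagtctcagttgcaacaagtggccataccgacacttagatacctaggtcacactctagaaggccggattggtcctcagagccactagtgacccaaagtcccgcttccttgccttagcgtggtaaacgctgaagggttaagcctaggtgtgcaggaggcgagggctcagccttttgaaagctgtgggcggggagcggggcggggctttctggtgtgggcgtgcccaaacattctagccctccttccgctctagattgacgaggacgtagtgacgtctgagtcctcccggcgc

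In Mcm6 there are 3 matches, of which 2 share bases within 1 run of capitals, and in Mcm7 the match after the start overlaps a CCAAT box. The match in E2f2 begins 40 bases after the RefSeq start, which lies 120 bases before the GENCODE start of the gene. The Mcm7 window belongs to a RefSeq start 65 bases from the nearest GENCODE transcript start and 539 bases inside the gene, and the window of its other listed start holds no match. The window of Mcm2 held none of these letters, which says only that they are not in it. The window listed for E2f1 belongs to a start 294 bases from the nearest GENCODE transcript start and 466 bases inside the gene, and is not shown. No GENCODE start of E2f1 lies in it. On this window alone E2f1 is counted above among the genes without the E2F letters. The CCAAT box was in 8 of 8 MCM genes, 3 of 3 in the class of CDC25 phosphatases with Cdc20 and 42 of all 71, against 41.1% of all listed genes. The letters TTTGAA or TTTAAA, known as the CHR of late cell cycle genes, were in 4 of 4 cyclins of the B and F classes. They were also in 5 of 9 other CDC genes and in 27 of all 71, against 30.6% of all listed genes. All letters were searched on both strands. A match is a description and not a bound site.

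Of 6 ORC genes, which mark origins, none was called; log2 fold changes ran from −0.05 for Orc5 to 0.26 for Orc1, which was rare at 6.34 to 6.64 CPM in the mutant and 4.87 to 5.93 CPM in wild type. Orc6, the highest by deposited FPKM, had 46.2, 44.2 and 46.6 CPM in the mutant and 42.7, 44.1 and 40.1 CPM in wild type. Cdc45, which joins MCM and GINS into the active helicase, had 32.3, 37.1 and 40.1 CPM in the mutant and 30.7, 29.2 and 27.7 CPM in wild type. The groups were apart (0.32 ± 0.10, adjusted p = 0.0429), and the call was lost in 7 of the 10 alternatives. Exons of Cdc45 overlap Ufd1 on the opposite strand. Cdc6, the loader of MCM, had 23.3 to 24.7 CPM in the mutant and 18.3 to 29.3 CPM in wild type (0.06). Cdc7, the kinase that fires origins, was lower in every mutant library, at 61.7, 61.9 and 66.8 CPM against 72.7, 71.3 and 72.7 CPM in wild type, and narrowly missed the threshold (−0.19, adjusted p = 0.0543).

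Genes of mitotic entry and exit were not called with all libraries. Cdc25a and Cdc25b, phosphatases that activate CDKs, had log2 fold changes of 0.15 and 0.20, and Cdc25c one of 0.19. Cdc25b had 64.2, 62.2 and 65.7 CPM in the mutant and 61.3, 50.7 and 54.9 CPM in wild type (adjusted p = 0.10), with wild type replicate 1 closest to the mutant. Cdc20, the activator of the anaphase promoting complex, had 86.7, 101 and 109 CPM in the mutant and 111, 88.4 and 77.1 CPM in wild type (0.10, adjusted p = 0.64). Cdc16, Cdc23, Cdc26 and Cdc27, subunits of that complex which nondividing cells also use, had log2 fold changes between −0.05 and 0.13. Cdc16 had 123, 131 and 131 CPM in the mutant and 113, 126 and 121 CPM in wild type (0.09, adjusted p = 0.29), and the groups overlapped. Mki67, the marker of all cycling cells, had 531, 553 and 578 CPM in the mutant and 614, 455 and 448 CPM in wild type. Its wild type values spanned the mutant values, and it did not pass (0.13 ± 0.15, adjusted p = 0.47). Pcna, the replication clamp, had 148, 152 and 167 CPM in the mutant and 164, 146 and 127 CPM in wild type (0.10, adjusted p = 0.49).

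Among the remaining CDC genes, which share a name from yeast screens and little else, Cdc14a rose and Cdc42 fell. Cdc14a, a phosphatase named for mitotic exit in yeast, had 28.6, 27.8 and 25.8 CPM in the mutant and 21.4, 21.1 and 19.6 CPM in wild type (0.41 ± 0.060, adjusted p = 0.00921). Cdc42, a small GTPase of cell polarity, had 295, 304 and 277 CPM in the mutant and 327, 324 and 347 CPM in wild type (−0.19 ± 0.051, adjusted p = 0.0325; lost in 5 of 10 alternatives). Both pairs of groups were apart. Cdc14b, the paralog of Cdc14a, had 4.78 to 6.64 CPM in the mutant and 2.79 to 4.30 CPM in wild type and missed the threshold (0.65, adjusted p = 0.0617). Cdc34, Cdc37, Cdc40, Cdc73 and Cdc123 were not called, with log2 fold changes of −0.19 to 0.21, and Cdc20b was too rare to test.

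Wild type replicate 1 had the highest CPM of the wild type libraries in 56 of the 80 tested genes, or 70%, against 36.2% of all tested genes, in 8 of 8 E2F genes, 7 of 9 MCM genes and all tested genes of the A, B, E and F cyclins. In the list of other mitosis genes this held for 25 of 25. Without this library 13 of the 80 were called higher and 8 lower, or 16.2% and 10%, against 10.4% and 12.5% of the 15611 genes then tested, and 26.2% in either direction, against 22.9%. The median log2 fold change of the 80 was 0.11, against 0.00 over all genes tested with 6 libraries. Leaving out the highest wild type library raises a fold change by itself. Of the 18 calls 16 were kept, Cdkn1a and Cdc45 were lost, and 5 genes were gained, all higher. The gained genes were Mki67 (0.29, adjusted p = 0.00914), Cdk2 (0.38, adjusted p = 0.0108), Mcm6 (0.28, adjusted p = 0.0121), E2f8 (0.40, adjusted p = 0.0173) and Cdc25b (0.27, adjusted p = 0.0312). In each of these 5, wild type replicate 1 was the highest wild type library. The fit then holds 2 wild type libraries. Wild type replicate 1 was also the library with the smallest total, and the part of depth in these values was not tested.

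**Figure D5:**
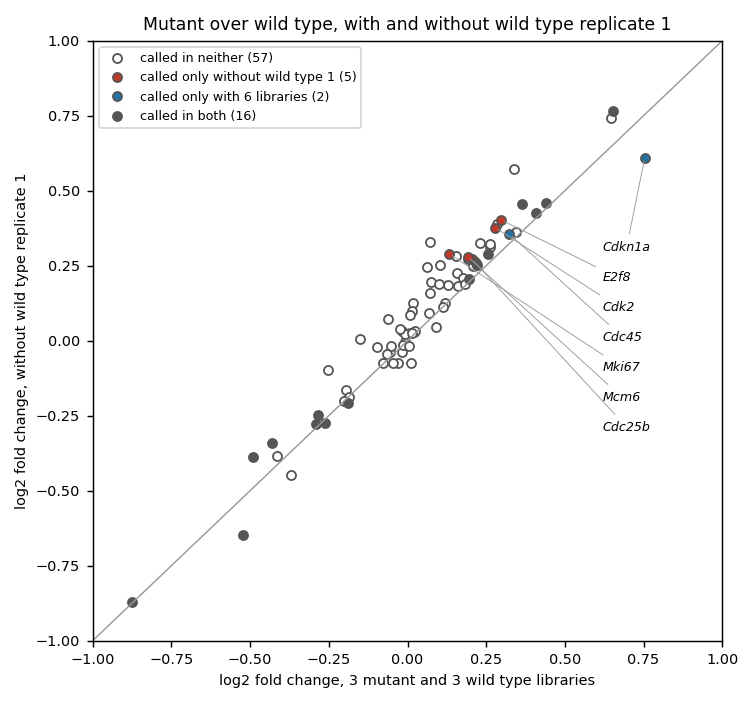
Log2 fold change, mutant over wild type, of the 80 tested genes with all 6 libraries (horizontal) and without wild type replicate 1 (vertical), with the diagonal drawn. Of the 80 points 66 lie above the diagonal, and the 5 genes gained and the 2 lost are named. Wild type replicate 1 was the highest wild type library in 56 of the 80, which by itself lifts points. The share of all tested genes above the diagonal was not counted.

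The partners of these genes were counted in lists drawn up by function. Earlier results of these data were known then, so the counts are not independent of them. Of 30 other replication genes 1 was higher and 2 lower (median log2 fold change 0.04), against 11.2% and 12.8% of all genes. Pola1, a subunit of the primase polymerase, had 48.6, 45.7 and 44.1 CPM in the mutant and 67.0, 56.5 and 54.1 CPM in wild type (−0.36, adjusted p = 0.0251), Rfc3 was lower and Timeless higher. Of 25 mitosis genes 1 was higher and 0 lower. It was Bub3 of the spindle checkpoint, with 111, 112 and 119 CPM in the mutant and 94.8, 90.2 and 85.5 CPM in wild type (0.34, adjusted p = 0.00453). Of 14 E2F partners and targets 1 was higher and 0 lower, the chromatin remodeller Hells (0.29, adjusted p = 0.0478). Without wild type replicate 1 the counts were 3 higher and 1 lower for replication, and 4 higher and 0 lower for mitosis. In that fit 10.4% of all tested genes were higher and 12.5% lower.

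Of 20 tested genes that set cyclin-CDK activity from outside, 6 were higher and 2 lower (median log2 fold change 0.13), against 11.2% and 12.8% of all genes. This list too was drawn up with earlier results of these data known, so its counts are not independent of them. Gadd45g, a growth arrest gene of neuronal precursors, rose to 216, 236 and 243 CPM in the mutant, against 62.3, 59.0 and 60.2 CPM in wild type (1.94, adjusted p = 8.81e-07). Btg2, an antiproliferative gene of neurogenic progenitors, had 186, 186 and 206 CPM in the mutant and 69.4, 56.5 and 58.4 CPM in wild type (1.65, adjusted p = 8.62e-06). Fbxw7, the ubiquitin ligase subunit that degrades cyclin E, Myc and Notch, had 116, 122 and 121 CPM in the mutant and 64.2, 67.6 and 58.3 CPM in wild type (0.92, adjusted p = 4.72e-05). Myc, which drives growth and division, fell to 11.0, 10.2 and 10.6 CPM in the mutant, against 24.5, 18.5 and 23.7 CPM in wild type (−1.07, adjusted p = 0.000594). These 4 were picked as the called genes of the list with the smallest adjusted p. Their differences were larger than that of any of the 80 genes above, and each kept its call in all 10 alternatives. Of the 20 genes 12 were not called, and 11 had an absolute log2 fold change under 0.25.

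Markers of cell types, listed with earlier results of these data known, differed between the same groups. The counts called with all libraries stand beside 11.2% of all tested genes called higher and 12.8% called lower. The 10 progenitor markers summed to 2607 to 2750 CPM in the mutant and 1800 to 2045 CPM in wild type, with 6 of 10 called higher and 0 lower. The 10 markers of postmitotic neurons summed to 4995 to 5218 CPM in the mutant and 5723 to 6407 CPM in wild type, with 4 lower and 2 higher. Within wild type, replicate 1 had the highest progenitor sum and also the highest neuron sum, at 6407 CPM against 5867 and 5723 CPM. By single markers it was the highest wild type library in only 2 of the 10 neuron markers, Dcx and Map2. Map2 had 670, 875 and 718 CPM in the mutant and 1160, 475 and 470 CPM in wild type. Oligodendrocyte precursor markers summed to 135.5 to 151.5 CPM in the mutant and 85.8 to 125.3 CPM in wild type. Of these 6 markers 2 were called higher, while the other 4 had negative log2 fold changes and were not called. The median over the 6 was −0.02. Pallial markers summed to 120.4 to 179 CPM in the mutant and 26.7 to 75.8 CPM in wild type, with wild type replicate 1 lowest. Of 6 tested 4 were called higher, and the other 2 had negative log2 fold changes, down to −1.005, and were not called. Without wild type replicate 1, 4 of 7 tested were higher and 2 lower, against 10.4% and 12.5% of all genes in that fit. Red cell markers summed to 582.2 to 780.7 CPM in the mutant and 435.1 to 643.7 CPM in wild type, with 2 of 6 tested higher. Choroid plexus markers summed to 28.1 to 34.4 CPM in the mutant and 6.82 to 9.23 CPM in wild type, most of it Otx2, which was called higher (log2 fold change 2.26). The other tested choroid marker, Clic6, was called lower, at 0 to 0.126 CPM in the mutant and 0.724 to 1.3 CPM in wild type, and the defining marker Ttr was at 0 to 0.39 CPM in all libraries. Endothelial markers summed to 140.7 to 147.9 CPM in the mutant and 147.6 to 167.3 CPM in wild type, with 1 of 7 lower. Microglial markers summed to 58.6 to 70.2 CPM in the mutant and 47.3 to 57.7 CPM in wild type, with 0 of 7 called. Mesenchymal markers summed to 133 to 145.5 CPM in the mutant and 121.7 to 128.5 CPM in wild type, with 1 of 4 tested higher and 1 lower. The part of these shifts in the values of the cell cycle genes was not tested.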

How the data were processed

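The table that the authors deposited holds, per the file headers, raw read counts and FPKM for each of 6 libraries, mean FPKM per group and a p-value per gene. Tools listed in the submitters' processing notes are StringTie 1.3.0, HISAT2 2.0.4 and edgeR, and builds GRCm38.p4 and mm10, with no roles. The read counter, its annotation and its use of strand were not given in the sources read for this work. No test is stated for the deposited p-value. Exons of 40 of the 85 genes overlap another gene on either strand in GENCODE M21, at any length of overlap. Among the 18 called genes this held for 9, all with an overlap on the opposite strand. They were Ccnd2, Cdc14a, Cdc45, Cdk17, Cdk19, Cdk20, Cdkn1a, Cdkn1c and Mcm7. Reads in such overlaps cannot be told apart if strand was not used. All 85 gene IDs were found in GENCODE M21.

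The deposited counts were fitted with edgeR 4.0.16 (R 4.3.3): filterByExpr by group (15326 genes), TMM scaling, glmQLFit and glmQLFTest, two-sided, adjusted over all genes with a threshold of 0.05. CPM are scaled by TMM. The SE comes from log2 CPM with 0.5 added to each count. Levels between genes are CPM per kilobase of the longest GENCODE M21 transcript. The 3 libraries of a group differed beyond sampling noise (chi-square per degree of freedom 7.15 to 14.3). Alternatives were a replicate block, each library left out in turn, scaling by RLE, no low-count filter, the Wald test of DESeq2 1.42.0 and, counted apart from these 10, an adjusted p below 0.01. The code was tested on simulated counts. Members and lists were chosen with earlier results of these data known. Every member could be named; given in full were those called with or without wild type replicate 1 and the highest of each class by FPKM, and of each partner list up to 4 called genes with the smallest adjusted p.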

Additional observations from a re-analysis of the deposited data

How the results depend on the processing

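The 10 higher and 8 lower genes with all libraries were 10 and 8 under RLE scaling, 9 and 8 with no low-count filter and 10 and 8 under DESeq2. Leaving out each library in turn gave 3 to 13 higher and 5 to 8 lower, with 3 higher without mutant replicate 2, 4 without wild type replicate 2, 5 without mutant replicate 3 or wild type replicate 3, and 6 without mutant replicate 1; the 5 lower were without mutant replicate 1. Over all genes these fits called 1211 to 1626 higher and 1416 to 1956 lower. At an adjusted p below 0.01 there were 3 higher and 5 lower among the cell cycle genes and 875 and 1116 among all genes. Without wild type replicate 1, the 13 higher and 8 lower genes were 13 and 8 under RLE scaling and 18 and 7 under DESeq2. No call reversed its direction. A replicate block gave 4 higher and 6 lower. The correlations of same-numbered libraries around their group means were −0.18, 0.043 and −0.17, and those of differently numbered libraries −0.136 to 0.25. Taking values around the mean of only 3 libraries ties them to each other. They therefore cannot decide whether the numbers pair the libraries. With genes at a few CPM, such as Cdkn2b and Cdkn3, counting error limits what could be seen. The cause of these differences was not tested.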

Other observations

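The deposited FPKM rest on a length per gene that is not that of an annotated transcript. The length implied by count, library total and FPKM was within 1 base of a GENCODE M21 transcript in 4 of the 85 genes, exceeded the longest transcript in 69 and exceeded the sum of all annotated exons in 61. For Ccnd2 it was 12354 bases, against 6330 bases for the longest transcript and 9409 bases of annotated exons, and for Cdk14 22019 bases, against 5145 and 18877. Levels of these genes set side by side in the deposited FPKM thus differ from levels per annotated kilobase, while ratios between libraries within a gene are not touched. By the p-values in the authors' deposited table, p was below 0.05 in 18 of the 85 genes, or 21.2%, and in 23.6% of all genes, and 14 of the 18 genes called here were among them.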
